A study of Macaca mulatta with 12 samples.

Results

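Among 26400 nuclei from the amygdala of rhesus macaques, 97 were neuronal nuclei that held FOXP2 transcripts, had at most 1 count of the GABA synthesis genes and were kept apart from 2 other kinds of excitatory nuclei. They were chosen on unique molecular identifier (UMI) counts: RBFOX3, the neuronal nuclear antigen, at 2 or more; GAD1 and GAD2 summed at 1 or fewer; PROX1 at 0; HTR1F under 5; and FOXP2 at 3 or more. These 97, called FOXP2 nuclei here, made up 0.367% of all nuclei and 0.839% of the 11556 nuclei that passed the RBFOX3 and GAD gates (95% interval 0.681 to 1.02%). They were compared with the 10941 nuclei that passed those gates and had FOXP2 at 0, called comparison nuclei. All nuclei were from frozen amygdala of 1 group, whose 12 samples carry specimen numbers 1 to 3 and library numbers 1 to 4. The labels name no treatment, genotype, age or subregion. The barcodes fall into 3 sets by their suffix, of 9201, 8900 and 8299 nuclei, and no label ties a set to a sample or an animal.

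FOXP2 is a forkhead transcription factor, best known for its part in speech and for its place in deep cortical layers, basal ganglia and thalamus. TLE4 is a Groucho family corepressor, a protein without DNA binding of its own that is brought to genes by other factors, and in the cortex it marks corticothalamic neurons of the deepest layer. RXFP1 is the receptor of the hormone relaxin. In the amygdala FOXP2 is otherwise known as a marker of the intercalated cells, which are GABAergic, so the identity of FOXP2 nuclei with little or no GAD1 and GAD2 was checked first. Both genes were at 0 in 79 of the 97, and in 9520 of the 11556 nuclei that passed the RBFOX3 and GAD gates. The rule capped both genes, so this count does not bear on identity.

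Levels below are in CPM, the UMIs of a gene scaled to the summed UMIs of a set of nuclei. The pool is 1 sample, so no p-value was computed, and the 3 barcode sets may differ only technically. Intervals are exact 95% Poisson or binomial ranges that cover counting error alone, and a gene was called higher or lower where its ratio was at least 2-fold and had 1 direction in the 3 barcode sets. FOXP2 nuclei held 927193 UMIs in all, with 3674 to 19369 UMIs per nucleus and a median of 9421, against a median of 8058 in comparison nuclei. The sets held 36, 32 and 29 FOXP2 nuclei, or 0.898, 0.821 and 0.795% of their gated nuclei. Of all barcodes, 68 occurred in more than 1 set, and 0 of these belonged to FOXP2 nuclei.

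Each FOXP2 nucleus held 3 to 16 FOXP2 UMIs, with a median of 6 and 618 in all. Over all 26400 nuclei, 222 reached 3 FOXP2 UMIs. The gates removed 93 of them for RBFOX3 under 2, 5 for GAD1 and GAD2 over 1, 8 for PROX1 and 19 for HTR1F at 5 or more, so nuclei with few or no RBFOX3 UMIs were the largest group set aside.

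The step from 2 to 3 FOXP2 UMIs, where the rule cuts, was also a step in TLE4 and RXFP1. Just outside the cut, the 39 nuclei with 2 FOXP2 UMIs held TLE4 at 142 CPM and RXFP1 at 158 CPM, and 43.6% and 35.9% of them had a UMI of the gene. Just inside it, the 21 nuclei with 3 FOXP2 UMIs held TLE4 at 577 CPM and RXFP1 at 678 CPM, and 81.0% and 76.2% of them had a UMI. Above the cut neither gene kept step with FOXP2. TLE4 was at 658 CPM in nuclei with 3 to 5 FOXP2 UMIs, 864 CPM at 6 to 10 and 817 CPM at 11 or more. RXFP1 was at 788, 886 and 846 CPM in these same strata. The 296 nuclei with 1 FOXP2 UMI were much nearer to those with 0, with TLE4 at 73.3 CPM and RXFP1 at 52.8 CPM. These values describe how the members were set apart and are not a test.

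**Figure D1:**
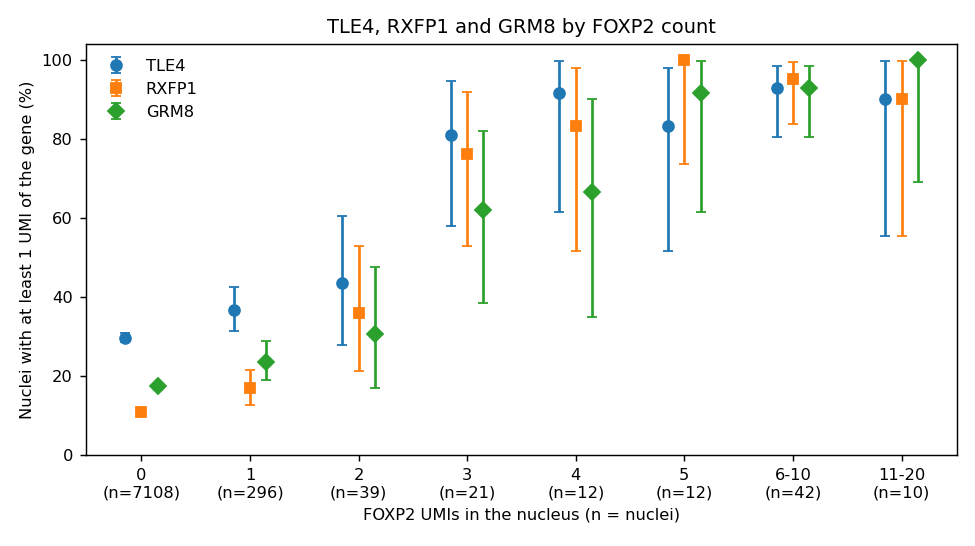
Share of gated nuclei (%, vertical axis) with at least 1 UMI of TLE4, RXFP1 or GRM8, by the number of FOXP2 UMIs in the nucleus (horizontal axis, with the number of nuclei). Nuclei have PROX1 at 0 and HTR1F under 5, and bars are exact binomial 95% intervals. For TLE4 the share was 43.6% at 2 FOXP2 UMIs and 81.0% at 3, and for GRM8, a metabotropic glutamate receptor, it was 30.8% and 61.9%.

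Of the excitatory markers, SV2B, a synaptic vesicle protein, set FOXP2 nuclei most clearly apart from inhibitory ones. It was at 174 CPM in FOXP2 nuclei, 167 CPM in comparison nuclei and 22.2 CPM in 1711 inhibitory nuclei (GAD1 and GAD2 summed at 4 or more, FOXP2 at 0). SLC17A7, the main vesicular glutamate transporter of the forebrain, was at 84.1 CPM (66.5 to 105.0) in FOXP2 nuclei, against 132 CPM in comparison nuclei and 29.0 CPM in inhibitory nuclei. In 762 astrocyte-gated nuclei, which should lack it, SLC17A7 was at 52.1 CPM at a median of 1955.5 UMIs. SLC17A6, a second glutamate transporter, was low at 6.47 CPM. CAMK2A, a kinase abundant in excitatory neurons, was at 390 CPM against 753 CPM in comparison nuclei and 175 CPM in inhibitory nuclei. The label of excitatory neurons thus rested mostly on SV2B, while SLC17A7 was less clear. Low GAD1 and GAD2 were fixed in advance by the rule and are no support for the label. By the sub-clusters described further on, it was at 130 CPM in sub-cluster 1, 74.0 CPM in 2, 44.6 CPM in 3 and 59.8 CPM in 4, so the last 2 were near the astrocyte-gated level. SV2B was at 171, 169, 154 and 209 CPM in the same order.

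Markers of GABAergic cells that the gates did not use were low. The vesicular GABA transporter SLC32A1 was at 2.16 CPM (15.4 CPM in inhibitory nuclei), LHX6 at 2.16 CPM (96.4 CPM) and DLX1 and DLX6 at 0. TSHZ1, the classical intercalated cell gene, was at 19.4 CPM, close to the 18.4 CPM of comparison nuclei, and the enkephalin gene PENK was at 2.16 CPM. MEIS2 was at 115 CPM against 65.3 CPM and FOXP1 at 744 CPM against 587 CPM. RARB, another intercalated cell marker, was called higher in FOXP2 nuclei. It was not among the genes called higher in sub-clusters 2 to 4 alone, or with the presumed doublets described below left out. The 8 intercalated cell markers present summed to 970 CPM, of which FOXP1 gave 744 CPM, against 738 CPM in comparison nuclei and 416 CPM in inhibitory nuclei. The same list summed to 1053 CPM in astrocyte-gated nuclei, and to 826 CPM in the comparison nuclei that also met the PROX1 and HTR1F gates. In sub-clusters 1 to 4 the sum was 1399, 830, 858 and 497 CPM. Over the glial lists, the 7 astrocyte markers summed to 713 CPM (568 to 827 over the sets) against 541 CPM in comparison nuclei, with AQP4 at 16.2 against 21.8 CPM and 1095 CPM in astrocyte-gated nuclei. The oligodendrocyte markers summed to 77.7 CPM against 244 CPM, the oligodendrocyte precursor markers to 430 against 611 CPM (OLIG1 at 0) and the microglial markers to 38.8 against 46.5 CPM. Endothelial markers summed to 65.8 CPM (20.4 to 109 over the sets) against 41.8 CPM, and mural cell markers to 8.75, 14.1 and 19.9 CPM in the sets against 12.2 to 13.4 CPM, with PDGFRB and ACTA2 at 0. CLDN5 was at 0 in both, and the part of these levels in the results was not tested.

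Not all members were alike in this respect. Clustering of the 97 nuclei, described further on, parted 36 nuclei (sub-cluster 1) from 61 (sub-clusters 2 to 4). In sub-cluster 1 the inhibitory marker list summed to 622 CPM, of which ADARB2 gave 536 CPM. The same list summed to 669 CPM in comparison nuclei and 7875 CPM in inhibitory nuclei. The Cajal-Retzius list summed to 235 CPM in sub-cluster 1 (46.1 CPM in comparison nuclei), of which RELN gave 225 CPM. Both lists were uneven over the barcode sets and highest in set 3. Over all 97 nuclei the Cajal-Retzius list summed to 37.9, 49.4 and 223 CPM in sets 1, 2 and 3. The inhibitory list summed to 169, 148 and 405 CPM in the same order. In sub-clusters 2 to 4 ADARB2 was at 18.0 CPM and RELN at 24.5 CPM, below the comparison nuclei (619 and 38.6 CPM). Presumed doublets, the barcodes with the highest doublet scores, numbered 12 of 36 in sub-cluster 1 (33.3%) and 2 of 61 in the others, against 8.20% of comparison nuclei. The part of doublets in the results was not tested. Values for sub-clusters 2 to 4 alone are given with the results.

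TLE4 was high in each set of FOXP2 nuclei. It was at 761, 748 and 811 CPM in sets 1, 2 and 3, where the comparison nuclei of the same sets were at 46.6, 46.0 and 44.8 CPM. The pooled values were 773 CPM (718 to 832) and 45.8 CPM, a log2 ratio of 4.08 (3.96 to 4.19). A TLE4 UMI was found in 86 of 97 FOXP2 nuclei. With each nucleus thinned to 3000 UMIs, the share was 75.3% (88.7% unthinned), against 11.5% of comparison nuclei (26.3%) and 8.88% of inhibitory nuclei (18.6%, median 6836 UMIs).

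RXFP1 stood at 954, 674 and 870 CPM in the 3 sets of FOXP2 nuclei and at 17.3, 24.7 and 27.9 CPM in those of the comparison nuclei. Its pooled log2 ratio was 5.18 (5.06 to 5.30). Both genes were seen in 79 of the 97 nuclei, TLE4 alone in 7, RXFP1 alone in 8 and neither in 3. In comparison nuclei 310, or 2.83%, held UMIs of both.

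Neither gene belonged to FOXP2 nuclei alone. TLE4 was at 221 CPM in astrocyte-gated nuclei, and RXFP1 was at 392 CPM in the 75 HTR1F nuclei (PROX1 at 0, HTR1F at 5 or more) and 106 CPM in inhibitory nuclei. For TLE4 the order was FOXP2 nuclei, astrocyte-gated nuclei (221), nuclei with 1 or 2 FOXP2 UMIs (81.4) and comparison nuclei (45.8). PROX1 nuclei (37.8), HTR1F nuclei (36.1) and inhibitory nuclei (34.7) came last, and these 3 overlapped within their counting intervals. The interval of the HTR1F nuclei (23.3 to 53.2 on 25 UMIs) also held the level of the comparison nuclei. RXFP1 fell in a different order, from FOXP2 to HTR1F to inhibitory nuclei, then nuclei with 1 or 2 FOXP2 UMIs (65.4), comparison, astrocyte-gated (12.1) and PROX1 nuclei (10.4). The last 2 had overlapping intervals.

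**Figure D2:**
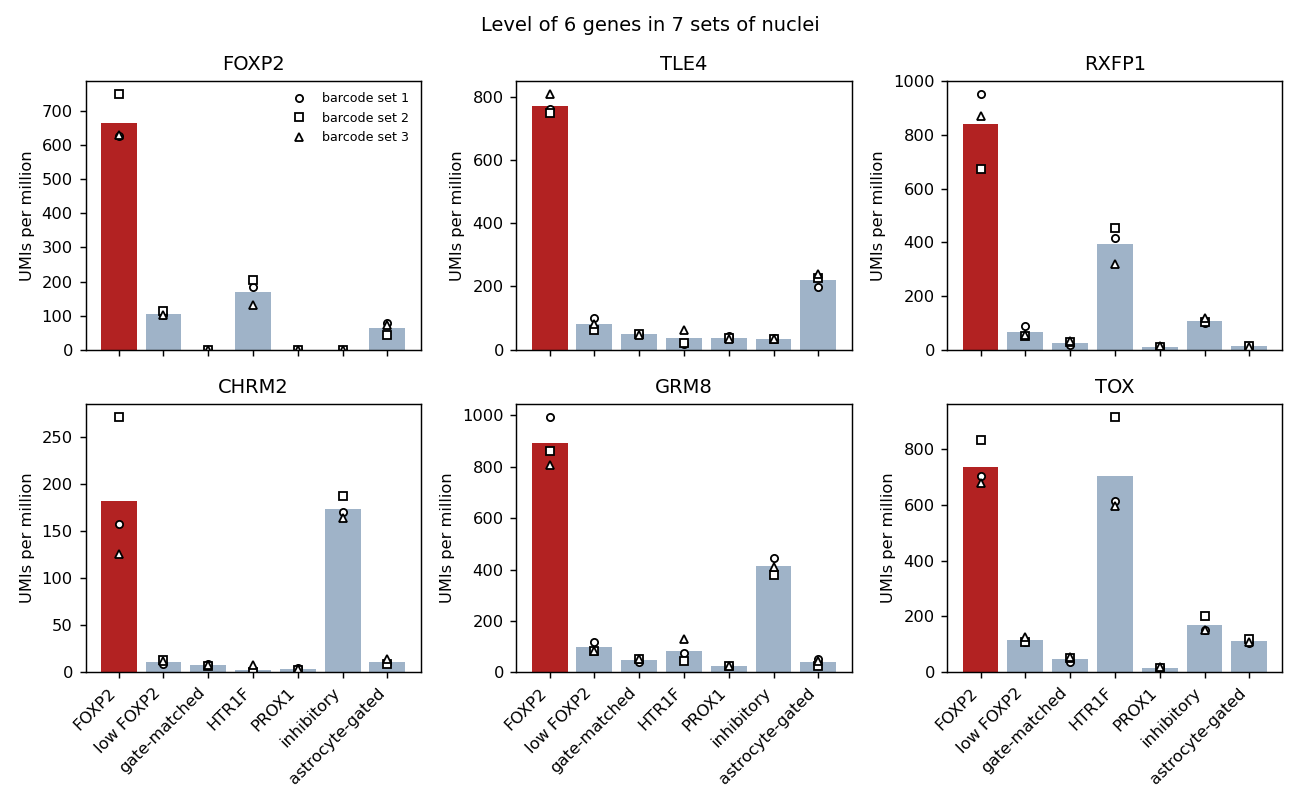
Level in CPM (vertical axes) of 6 genes in FOXP2 nuclei and 6 other sets of nuclei. Bars give the pooled level and symbols the 3 barcode sets. TLE4 was high in FOXP2 nuclei (773) and next in astrocyte-gated nuclei (221), while RXFP1 and TOX were also high in HTR1F nuclei (392 and 704).

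The other members of the TLE family did not share the direction of TLE4. TLE3, another corepressor, was lower in FOXP2 nuclei, at 6.47 against 34.7 CPM (log2 −2.42, −3.87 to −1.30, and −3.40 without set 3). TLE1 was at 35.6 against 63.3 CPM and TLE2 at 48.5 against 60.5 CPM, neither past 2-fold, and TLE6, with 0 UMIs, was not measured. In sub-clusters 2 to 4 TLE1 was at 19.6 CPM, a log2 ratio of −1.69. RXFP2, the receptor of the relaxin-like hormone INSL3, was at 7.55 against 18.2 CPM and fell by 1.27 on the log2 scale, with 7 UMIs in FOXP2 nuclei. Its log2 ratio was −1.92 without set 2, −0.95 without set 3 and −0.77 with thinned nuclei. INSL3 had 0 UMIs, so no ligand could be read.

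The forkhead relatives of FOXP2 did not follow it. FOXP1, which can pair with FOXP2, had a log2 ratio of 0.34 (0.23 to 0.45), and FOXP3 and FOXP4 had 4 UMIs each.

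Across all genes, 9085 had enough UMIs to be measured. Of these 594 were higher in FOXP2 nuclei (6.54%) and 667 lower (7.34%), and the median log2 ratio was −0.03. Against the 7108 comparison nuclei that also met the PROX1 and HTR1F gates, 6.88% of 9043 genes were higher and 6.78% lower.

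TRPC6, a cation channel opened by diacylglycerol, was among the lowest genes, with 1 UMI in FOXP2 nuclei (1.08 CPM) and 32.5 CPM in comparison nuclei (log2 −4.91, −10.2 to −2.43). TRPC5, a related channel, was also lower, at 78.7 against 269 CPM.

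Among the highest ratios were those of FNDC1, a fibronectin domain protein (58.2 against 1.02 CPM, log2 5.83), ST3GAL1, a sialyltransferase (71.2 against 1.37 CPM, log2 5.70), and MYZAP (110 against 2.59 CPM, log2 5.41). QRFPR, the receptor of the peptide QRFP, had a log2 ratio of 4.88 and CHRM2, a muscarinic acetylcholine receptor, one of 4.76. CCDC60 was at 313 against 13.4 CPM (log2 4.55). VWA2 (27 UMIs), PGGHG (21 UMIs) and SH2D3A (16 UMIs) had log2 ratios of 5.56, 5.17 and 4.62 on few counts. VWA2 was at 58.3 CPM in set 1, 7.06 in set 2 and 16.6 in set 3, and its ratio was 4.45 without set 1. SMAD6 reached the list through 1 nucleus, which gave 93.3% of its 30 UMIs. Its log2 ratio was 5.42 with that nucleus, 0.80 without the presumed doublets and 2.13 without set 3.

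At the low end, ST18, a zinc finger factor of some amygdala excitatory neurons and of oligodendrocytes, was at 7.55 against 138 CPM (log2 −4.19, −5.51 to −3.15, and −4.87 without set 2). CHST9, a sulfotransferase, was at 12.9 against 194 CPM (log2 −3.91), and IL1RAP, the accessory receptor of interleukin 1, at 9.71 against 144 CPM (log2 −3.89, and −4.49 without set 3). ACVR1C, a receptor of activins, was at 6.47 against 80.6 CPM, and ACOX2 at 4.31 against 52.3 CPM. Without set 1 the log2 ratio of ACVR1C went from −3.64 to −4.55, and that of ACOX2 from −3.60 to −2.94 (−5.04 without set 2). For RGS8, TSPAN33, IRAK3 and NEUROD1, each with 1 UMI, and for SMOC2 with 2 and ADGRA2 with 3, the counting intervals were wide, as with RGS8 from −9.84 to −2.06. Leaving out the set that held the single UMI replaced it by a floor of 3 counts and gave log2 ratios of −2.41 for RGS8, −2.84 for TRPC6, −1.89 for TSPAN33, −1.65 for IRAK3 and −1.59 for NEUROD1. With nuclei thinned to 3000 UMIs, IRAK3 and NEUROD1 were at −0.73 and −0.35, no longer past 2-fold.

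**Figure D3:**
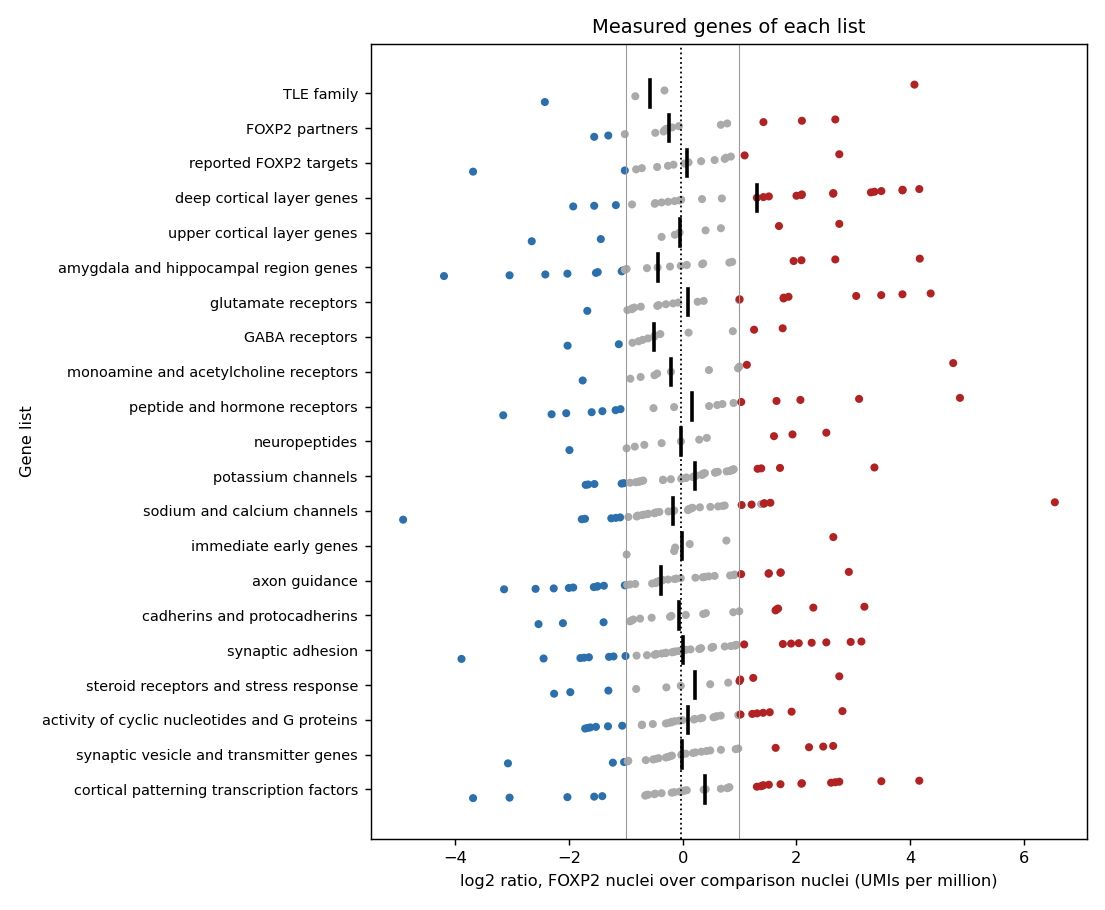
Log2 ratio of FOXP2 nuclei over comparison nuclei (horizontal axis) for the measured genes of each gene list with at least 4 of them (rows). Red points were called higher, blue lower and grey neither. Black bars mark list medians, grey lines a 2-fold difference and the dotted line the median of all 9085 measured genes (−0.03). The deep cortical layer list had the median farthest to the right (1.31).

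Each list count of all FOXP2 nuclei against comparison nuclei is to be read against the shares called over all genes, 6.54% higher and 7.34% lower. For sub-clusters 2 to 4 alone these shares were 7.28% and 10.6%. Of 14 measured genes known to work with FOXP2 as partners or co-regulators, 3 were higher, 2 lower and 9 neither (median −0.24). SATB1, a chromatin organiser, was at 166, 127 and 166 CPM in the sets against 23.0 to 25.1 CPM, with a log2 ratio of 2.68 (2.43 to 2.93). SOX5, which in the cortex keeps deep layer neurons from taking other fates, was at 938 against 350 CPM (log2 1.42). TBR1, the T-box factor of corticothalamic neurons, was at 30.2 against 7.06 CPM (log2 2.10), and was unevenly spread at 49.6, 17.6 and 19.9 CPM over the sets, with a log2 ratio of 1.47 without set 1. NFIA was lower at 149 against 437 CPM and CTBP2, a corepressor, at 73.3 against 181 CPM.

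Of 16 measured genes reported elsewhere as FOXP2 targets, 2 were higher, 2 lower and 12 neither (median 0.07), near the 6.54% and 7.34% of all genes in so short a list. VLDLR, a reelin receptor, was at 23.7 against 11.1 CPM (log2 1.09) and RORB, a nuclear receptor of cortical layer identity, at 73.3 against 10.9 CPM (log2 2.75). RORB was seen in 16 nuclei, and 1 of them gave 25% of its UMIs. SLIT1, a guidance cue, was at 278 against 563 CPM (log2 −1.02). Both SLIT1 and VLDLR were near the cut, with log2 ratios of −0.96 and 0.86 without set 1.

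Genes that mark deep cortical layers were mostly higher in FOXP2 nuclei or not past 2-fold. Of 27 measured, 14 were higher, 3 lower and 10 neither (6.54% and 7.34% of all genes), with a median log2 ratio of 1.31. In sub-clusters 2 to 4 the counts were 13 higher and 4 lower of 25 measured, where 7.28% and 10.6% of all genes were called. TOX, a chromatin factor, was at 703, 833 and 678 CPM in FOXP2 nuclei against 34.4, 42.8 and 46.2 CPM (log2 4.16, 4.04 to 4.28). DPP10, a potassium channel partner, was at 6845, 5613 and 6428 CPM against 428 to 445 CPM (log2 3.87). GRIK3, a kainate receptor subunit, was at 91.7 against 6.29 CPM (log2 3.87), and TSHZ2, a zinc finger factor, at 1388 against 118 to 126 CPM in the comparison sets (log2 3.49). FEZF2, which directs subcortical projection neurons, was at 78.7 against 27.5 CPM (log2 1.52), and BCL11B, its downstream partner, at 476 against 192 CPM (log2 1.31). ETV1 was at 404 against 93.6 to 95.9 CPM in the comparison sets (log2 2.09), CRYM, a thyroid hormone binding protein, at 112 against 28.0 CPM (log2 2.00) and SYT6 at 18.3 against 2.93 CPM on 17 UMIs (log2 2.65). The 3 that were lower were NTNG2 (33.4 against 127 CPM), the calcium release channel RYR3 (929 against 2094 CPM) and NFIA.

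Of 9 upper layer genes, 2 were higher, 2 lower and 5 neither, with a median of −0.05. PDZRN4 was at 1175 against 363 CPM and RORB as above, while RASGRF2 was at 32.4 against 203 CPM and CALB1, the calcium buffer calbindin, at 7.55 against 20.5 CPM. CALB1 had 7 UMIs and a log2 ratio of −1.44, with −0.82 against the gate-matched nuclei and −2.66 without set 3.

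Of 23 measured genes that tell amygdala and hippocampal regions apart, 4 were higher, 8 lower and 11 neither (median −0.44), against 6.54% higher and 7.34% lower over all genes. ZBTB20, a factor of hippocampal and granule neurons, was at 143, 166 and 126 CPM in FOXP2 nuclei against 1177 to 1206 CPM (log2 −3.04, −3.30 to −2.80). COL25A1, a transmembrane collagen, was at 235 against 1252 CPM (log2 −2.41), and LHX2 at 15.1 against 61.4 CPM (log2 −2.02). These differences were wider in sub-clusters 2 to 4, where ZBTB20 was at 68.6 CPM (log2 −4.12), COL25A1 at 124 CPM (log2 −3.33) and LHX2 at 4.90 CPM (log2 −3.65). In the other direction VWC2L, a secreted BMP modulator, was at 680, 540 and 618 CPM against 33.9 to 34.6 CPM (log2 4.17), and LMO3 at 300 against 77.5 CPM (log2 1.95).

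The list of patterning transcription factors overlaps the deep layer list. It had 13 higher, 5 lower and 18 neither of 36 measured (median 0.39). In sub-clusters 2 to 4 its median was 0.01 with 13 higher and 8 lower of 33, where 7.28% and 10.6% of all genes were called. Beyond genes already named, TOX2 (47.5 against 7.77 CPM) and ETV5 (192 against 58.2 CPM) were higher and NPAS3 (192 against 511 CPM) was lower.

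Glutamate receptor genes fell into 8 higher, 1 lower and 13 neither of 22 measured (median 0.09). GRM8, a presynaptic metabotropic receptor that lowers transmitter release, was at 995, 861 and 807 CPM in FOXP2 nuclei against 39.3, 45.8 and 45.3 CPM (log2 4.36, 4.25 to 4.47). Its relative GRM4 was at 152 against 13.5 CPM (log2 3.49) and GRM3 at 949 against 114 CPM (log2 3.05). GRM8 was also at 413 CPM in inhibitory nuclei. GRIN3A, an NMDA receptor subunit that lowers calcium entry, was at 249 against 68.5 CPM (log2 1.86), and GRIA4 at 203 against 59.1 CPM. GRIA1, an AMPA receptor subunit, was at 1047 against 3345 CPM (log2 −1.68, −1.77 to −1.58). The core NMDA receptor subunits were nearer to 1 to 1, with GRIN1 at 255 against 312 CPM and GRIN2B at 1342 against 1826 CPM.

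The GABA-A receptor alpha subunits went in both directions. GABRA3 was at 71.2 against 29.8 CPM (log2 1.26). GABRA2 went the other way, from 578 CPM in comparison nuclei to 111, 159 and 163 CPM in the sets of FOXP2 nuclei (log2 −2.02, −2.28 to −1.78). GABRG1 was lower at 22.6 against 49.3 CPM, with a log2 ratio of −1.12 and −0.42 with nuclei thinned to 3000 UMIs. Over 13 measured genes, 2 were higher, 2 lower and 9 neither (median −0.50).

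Muscarinic receptors were likewise split. CHRM2, which couples to inhibitory G proteins, was at 157, 272 and 126 CPM against 5.90 to 7.95 CPM, and was seen in 46 of 97 nuclei. It was at a like level, 174 CPM, in inhibitory nuclei. CHRM3, which couples to calcium release, was at 319 against 1079 CPM (log2 −1.76), and at 39.2 CPM in sub-clusters 2 to 4 (log2 −4.78). HTR2C, a serotonin receptor, was at 41.0 against 18.7 CPM (log2 1.13). It was seen in 11 nuclei, was at 17.5 against 17.0 CPM in set 1, and had a log2 ratio of 0.37 without the presumed doublets. The other 8 of the 11 measured receptors of monoamines and acetylcholine were neither higher nor lower.

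Receptors of peptides and hormones were divided, with 5 higher, 7 lower and 6 neither of 18 measured. QRFPR was at 140, 88.2 and 59.8 CPM in FOXP2 nuclei against 3.28 to 3.43 CPM. HCRTR2, an orexin receptor, was at 52.8 against 6.15 CPM (log2 3.10) and VIPR2, a receptor of vasoactive intestinal peptide, at 19.4 against 4.62 CPM on 18 UMIs (log2 2.07, and 0.48 with nuclei thinned to 3000 UMIs). Lower were OPRD1, the delta opioid receptor, at 7.55 against 67.2 CPM (log2 −3.15), LEPR, the leptin receptor, at 8.63 against 42.6 CPM (log2 −2.30), TACR1, the substance P receptor, at 10.8 against 44.5 CPM (log2 −2.05) and CNR1, the cannabinoid receptor, at 39.9 against 85.0 CPM. Each of OPRD1, LEPR and TACR1 rested on 7 to 10 UMIs, and OPRD1 ranged from −2.50 without set 1 to −5.40 without set 2.

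Few neuropeptide genes were measured. NXPH1, a secreted ligand of neurexins, was at 192, 219 and 299 CPM against 37.3 to 45.6 CPM (log2 2.53, 2.32 to 2.72), with 1843 CPM in inhibitory nuclei. VGF was at 28.0 against 9.20 CPM (log2 1.61) and AVP, vasopressin, at 19.4 against 5.09 CPM on 18 UMIs, of which 27.8% came from 1 nucleus. IGF1 was at 3.24 against 12.8 CPM on 3 UMIs, with a log2 ratio of −1.99, which was −3.04 without set 3 and −0.60 with thinned nuclei. In all, 3 of 11 measured were higher and 1 was lower.

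Most channel genes were not past 2-fold. Of 41 measured potassium channel genes 4 were higher, 5 lower and 32 neither, and of 39 sodium and calcium channel genes 6 were higher, 6 lower and 27 neither, against 6.54% and 7.34% over all genes. KCNIP1, a regulator of A-type potassium current, was at 166, 212 and 183 CPM against 17.6 to 18.1 CPM (log2 3.37), KCNH7 at 126 against 38.5 CPM and KCNH5 at 94.9 against 36.4 CPM. KCNC2, a subunit of fast delayed rectifier channels, was at 94.9 against 309 CPM (log2 −1.70). One nucleus gave 27.3% of its UMIs, and its log2 ratio was −2.49 without the presumed doublets. The calcium channel beta subunits differed too: CACNB4 was at 552 against 189 CPM (log2 1.54) and CACNB2 at 504 against 1655 CPM (log2 −1.72). SCN9A, a sodium channel better known from sensory neurons, was at 63.6 against 23.5 CPM (log2 1.44).

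Of 40 measured guidance genes, 6 were higher, 10 lower and 24 neither (median −0.38), so calls in both directions were above the 6.54% and 7.34% of all genes. UNC5C, a netrin receptor, was at 64.2, 237 and 146 CPM in FOXP2 nuclei against 1222 to 1293 CPM (log2 −3.14, −3.39 to −2.89). The spread of UNC5C over the sets of FOXP2 nuclei was over 3-fold, yet each was below every comparison set. Of the ephrin receptors, EPHA6 was at 705 against 3392 CPM (log2 −2.27) and EPHA4 at 165 against 660 CPM (log2 −2.00), while EPHA5 was at 1327 against 650 CPM (log2 1.03). EFNA5, an ephrin ligand, was at 414 against 125 CPM (log2 1.72), NTN4, a netrin, at 48.5 against 14.7 CPM (log2 1.72) and SEMA3F at 11.9 against 1.56 CPM on 11 UMIs. In sub-clusters 2 to 4 UNC5C was at 29.4 CPM (log2 −5.42) and EPHA6 at 294 CPM (log2 −3.53).

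Cell adhesion genes were called in both directions. CDH18, a type II cadherin, was at 633, 710 and 628 CPM against 69.8 to 74.1 CPM (log2 3.20), and CDH11 at 1105 against 352 CPM (log2 1.65). CDH12 was at 207 against 542 CPM (log2 −1.39), and PCDH8, with 0 UMIs, was at least 4.30-fold lower against a floor of 3 counts over the FOXP2 nuclei (log2 −2.10, −1.43 without set 1 and −0.61 with thinned nuclei). Of 20 measured cadherins 5 were higher and 3 lower. In the 43 measured synaptic adhesion genes, 8 were higher and 8 lower. LRRTM3, a postsynaptic partner of neurexins, was at 719 against 81.4 CPM (log2 3.14) and the contactin CNTN4 at 1044 against 135 CPM (log2 2.96). CNTN5 was at 132 against 457 CPM (log2 −1.80), PTPRK, a receptor phosphatase, at 47.5 against 258 CPM (log2 −2.44) and NLGN1, a neuroligin, at 1849 against 4290 CPM (log2 −1.21).

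The 2 corticosteroid receptors stood on opposite sides. NR3C1, the glucocorticoid receptor, was at 160, 106 and 169 CPM against 60.3 to 63.0 CPM (log2 1.24, 0.99 to 1.49). NR3C2, the mineralocorticoid receptor, was at 274, 378 and 279 CPM against 1187 to 1224 CPM (log2 −1.97, −2.15 to −1.81). FKBP5, a chaperone partner that their ligands induce, was at 17.3 against 82.6 CPM on 16 UMIs (log2 −2.26). THRB, a thyroid hormone receptor, was at 184 against 91.4 CPM (log2 1.01), just past 2-fold, and at 0.75 against the gate-matched nuclei.

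Signalling enzymes gave 7 higher, 6 lower and 19 neither of 32 measured. PDE9A, a cyclic GMP phosphodiesterase, was at 150 against 21.4 CPM (log2 2.81) and RGS6, a G protein regulator, at 324 against 85.7 CPM (log2 1.92). PRKG1, the cyclic GMP dependent kinase, was at 485 against 1543 CPM (log2 −1.67) and PRKCA, a protein kinase C, at 182 against 562 CPM (log2 −1.62). Of 28 measured vesicle and transmitter genes, 4 were higher, among them CPLX1, a complexin, at 82.0 against 14.8 CPM (log2 2.47), and 3 lower, among them UNC13C at 101 against 237 CPM. NR4A2, an orphan nuclear receptor that in the cortex marks the deepest layers and the claustrum, was at 45.3 against 7.21 CPM (log2 2.65). The other 5 measured immediate early genes were neither higher nor lower, and FOS had 1 UMI.

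The HTR1F nuclei were the nearest set in RXFP1 and were compared in turn, with 3618 genes measured, of which 7.05% were higher in FOXP2 nuclei and 5.69% lower. FOXP2 itself was at 170 CPM in HTR1F nuclei, against 667 CPM, and the HTR1F gate kept 19 nuclei with 3 or more FOXP2 UMIs on their side. The 2 sets shared several of the genes that parted FOXP2 nuclei from the comparison nuclei. TOX was at 734 and 704 CPM (log2 0.06, −0.11 to 0.23) and VWC2L at 617 and 580 CPM (log2 0.09, −0.10 to 0.28). TSHZ2 was at 1388 and 2411 CPM, so its level was higher in HTR1F nuclei, though not past 2-fold.

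TLE4 was a clear point of difference, at 773 CPM in FOXP2 nuclei and 36.1 CPM in HTR1F nuclei (log2 4.42, 3.85 to 5.06). CHRM2 and QRFPR had 2 UMIs each in HTR1F nuclei, with log2 ratios of 5.98 (4.11 to 9.04) and 5.09 (3.19 to 8.16). CDH18 (log2 4.24), ETV1 (log2 4.04), CNTN4 (log2 3.64), GRM8 (log2 3.39) and SOX5 (log2 2.79) were also higher in FOXP2 nuclei. BMP6, a growth factor with 102 UMIs in FOXP2 nuclei and 0 in HTR1F nuclei, was at least 25.4-fold higher. In the other direction GPC6, a glypican, was at 2330 CPM in HTR1F nuclei against 243 CPM (log2 −3.26) and ST18 at 143 against 7.55 CPM (log2 −4.24). Of the 21 deep layer genes measured here, 11 were higher in FOXP2 nuclei and 2 lower, with a median log2 ratio of 1.04.

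**Figure D4:**
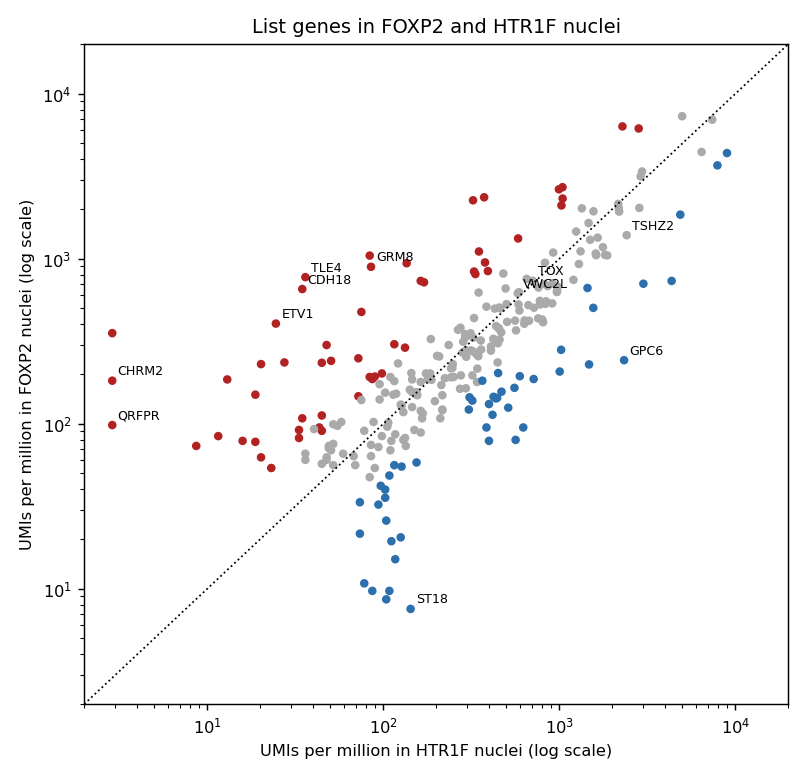
Level in CPM of 278 list genes in FOXP2 nuclei (vertical axis, log scale) and HTR1F nuclei (horizontal axis, log scale). Genes measured with UMIs on both sides are shown, with red for 53 called higher in FOXP2 nuclei, blue for 49 called lower and the dotted line for equal levels. TLE4, GRM8 and CHRM2 lie above the line, GPC6 and ST18 below it, and TOX and VWC2L on it.

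Against the 2101 PROX1 nuclei, which carry the granule neuron factor PROX1 at 2 or more UMIs and FOXP2 at 0, 7.85% of 9093 genes were higher in FOXP2 nuclei and 9.92% lower. TLE4 (37.8 CPM), RXFP1 (10.4), GRM8 (24.5) and TOX (17.1) were all low in PROX1 nuclei. ZBTB20 was at 1386 CPM there and NFIA at 788 CPM.

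Within the FOXP2 nuclei, clustering on a share of the genes gave 4 sub-clusters of 36, 23, 20 and 18 nuclei, each with nuclei of the 3 barcode sets. Their median depths were 8734.5, 10103.0, 10107.5 and 9165.0 UMIs. The values below are for genes kept out of the clustering, and they are descriptions, since the nuclei are those that were clustered. Sub-clusters take no cell type name here. At a lower clustering resolution sub-clusters 2 and 4 were joined in 1 cluster of 41 nuclei, while 1 and 3 stayed whole. At a higher resolution 9 nuclei of sub-cluster 1 shared a cluster with 5 of sub-cluster 2.

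TLE4 was at 365 CPM (301 to 438) in sub-cluster 1 and at 892, 1037 and 1053 CPM in sub-clusters 2, 3 and 4. RXFP1 was at 473, 1052, 1136 and 873 CPM in the same order. FOXP2 itself was no lower in sub-cluster 1, at 793 CPM against 543, 556 and 742 CPM.

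Sub-cluster 1 held several genes at levels that the other sub-clusters did not reach. CHRM3 was at 863 CPM against 37.0 to 41.9 CPM in the others, and MEF2C, an activity-regulated factor, at 485 against 28.8 to 41.9 CPM. GPC5 and GPC6, both glypicans, were at 666 and 625 CPM, and PTPRT at 584 CPM against 28.8 to 83.8 CPM. PTPRT thus counted as higher in FOXP2 nuclei (229 against 47.4 CPM in comparison nuclei) through sub-cluster 1. Of 296 measured list genes 52 were higher and 34 lower in sub-cluster 1, where 5.98% and 5.94% of all genes kept out of the clustering were called. HTR1F UMIs, which the rule capped under 5 in every member, were found in 10 of its 36 nuclei, against 2 of the other 61. SLC17A7 was at 130 CPM against 44.6 to 74.0 CPM.

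Sub-cluster 2 had the orexin receptor HCRTR2 at 127 CPM (19.8 and 59.8 CPM in sub-clusters 3 and 4), and with it NXPH1 at 452 CPM, TOX at 1258 CPM, the neurotrophin BDNF at 82.2 CPM and KCND2, a potassium channel, at 2771 CPM. Here 22 of 285 list genes were higher and 44 lower, with 2.78% and 6.14% of genes called. Sub-cluster 3 had DPP10 at 12105 CPM, GRIK3 at 154 CPM, SULF1, a heparan sulfate sulfatase, at 84.3 CPM and the histamine receptor HRH1 at 189 CPM. It shared all but DPP10 with another sub-cluster within overlapping intervals, with SULF1 at 73.0 CPM and HRH1 at 159 CPM in sub-cluster 1 and GRIK3 at 126 CPM in sub-cluster 4. RGS6 was at 24.8 CPM and UNC5D at 34.7 CPM, against 676 and 215 CPM in sub-cluster 4. Of 273 list genes 6 were higher and 43 lower in it, where 1.48% and 6.05% of genes were called.

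Sub-cluster 4 was marked by QRFPR, at 353 CPM in 17 of 18 nuclei against 24.8 to 74.0 CPM in the others. It also had GRIN3A at 598 CPM, HTR2C at 102 CPM, the adrenergic receptor ADRA1A at 197 CPM and the guidance cue SLIT2 at 903 CPM. NXPH1 was at 35.9 CPM there, against 452 and 372 CPM in sub-clusters 2 and 3. Of 258 list genes 18 were higher and 47 lower, where 3.44% and 6.36% were called. CHRM2 was high in sub-clusters 2 and 4 (312 and 305 CPM) and low in 1 and 3 (98.4 and 54.6 CPM).

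**Figure D5:**
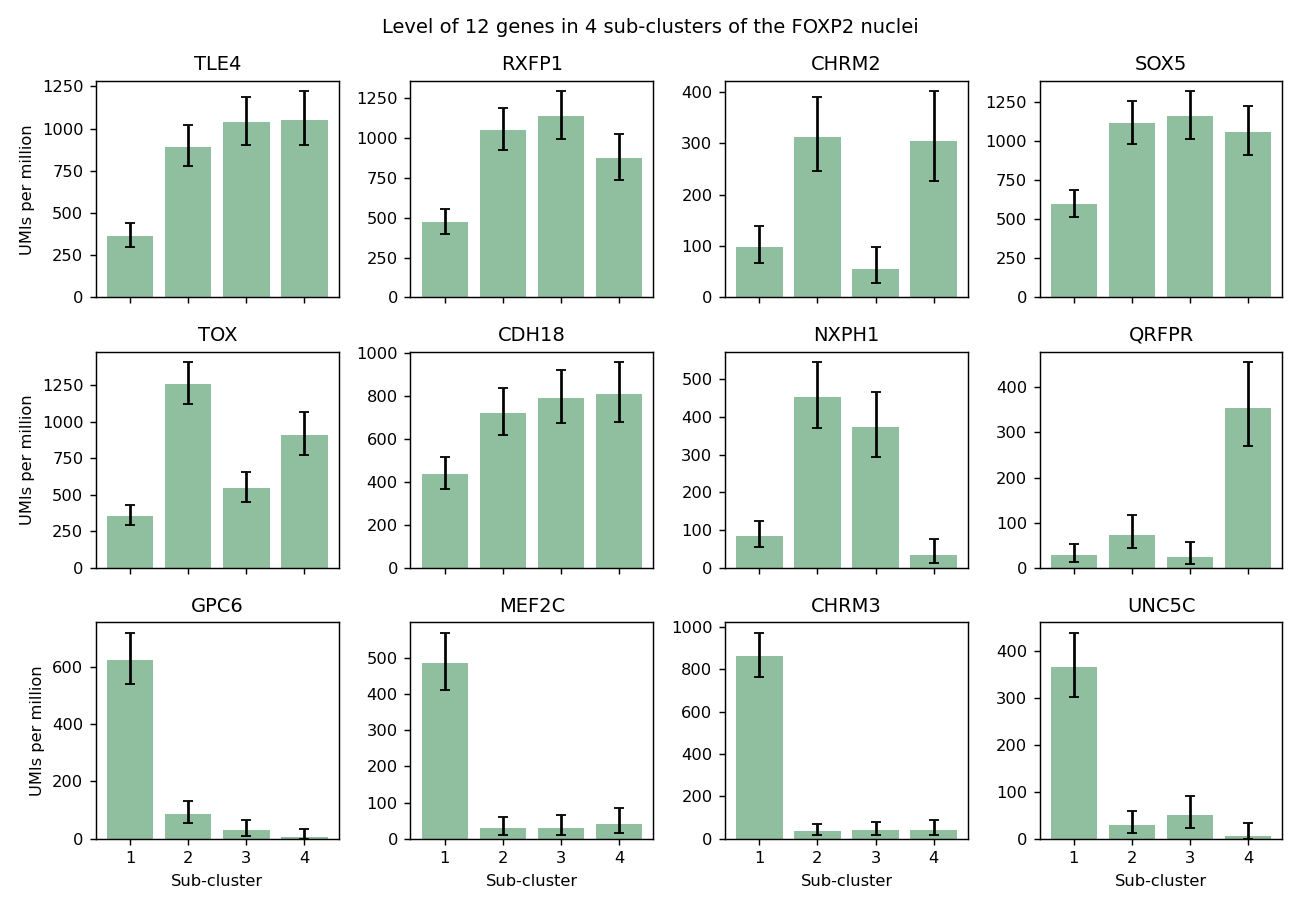
Level in CPM (vertical axes, from 0) of 12 genes in the 4 sub-clusters of FOXP2 nuclei (36, 23, 20 and 18 nuclei), with exact Poisson 95% intervals. TLE4 was lower in sub-cluster 1 (365), where CHRM3 (863), MEF2C (485) and GPC6 (625) were high, and QRFPR was high in sub-cluster 4 (353).

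Leaving out sub-cluster 1, an alternative chosen after the data were seen, gave 566 higher and 824 lower genes of 7773 measured. Of these, 453 and 505 were among the 594 higher and 667 lower genes of all 97 nuclei. Leaving out the 14 presumed doublets gave 570 higher (6.74% of 8460) and 766 lower (9.05%), of which 497 and 575 were shared. Deep layer genes had a median log2 ratio of 1.66 in sub-clusters 2 to 4. Glutamate receptors went from 1 to 5 lower genes of 22 and cadherins from 3 of 20 to 8 of 19. Over all genes the share called lower went from 7.34% to 10.6%.

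Many of the genes that were lower in FOXP2 nuclei were lower still in sub-clusters 2 to 4. The log2 ratio was −2.48 for the factor NFIA, −3.41 for the corepressor TLE3 and −5.89 for the sulfotransferase CHST9, against −1.55, −2.42 and −3.91 over the 97 nuclei. Among receptors it was −2.94 for GABRA2, −2.33 for GABRG1, −3.78 for OPRD1, −2.77 for TACR1 and −3.48 for RXFP2. Among channels and kinases it was −3.17 for KCNC2, −2.66 for TRPC5, −2.61 for CACNB2, −2.50 for PRKG1 and −2.32 for PRKCA. Among adhesion genes it was −2.42 for CDH12, −3.60 for PTPRK and −3.17 for CNTN5, and NTNG2, RASGRF2, CALB1 and FKBP5 were at −3.28, −4.15, −3.65 and −3.34. Some of these ratios rested on very few UMIs, with RXFP2 and CALB1 at 1.63 CPM, TLE3 and CHST9 at 3.27 CPM and OPRD1 at 4.90 CPM. TRPC6, RGS8, TSPAN33, IRAK3, SMOC2, NEUROD1 and PCDH8 were instead less low than over the 97 nuclei, as with RGS8 from −4.54 to −2.35. Of these, RGS8, IRAK3, SMOC2 and PCDH8 were at 0 in sub-clusters 2 to 4 and were set to the floor. RORB, a higher gene, went from 2.75 to 1.73.

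A few nuclei below the FOXP2 cut carried the same genes. At least 3 UMIs of both TLE4 and RXFP1 were found in 70 of 97 FOXP2 nuclei, 4 of 39 with 2 FOXP2 UMIs, 5 of 296 with 1 and 11 of 7108 with 0. In those 11 nuclei GRM8 was at 450 CPM, TOX at 604 CPM and CDH18 at 585 CPM. In the 70 FOXP2 nuclei these genes were at 1085, 845 and 772 CPM. Among inhibitory nuclei 3 reached 3 FOXP2 UMIs, and all 3 were presumed doublets.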

How the data were processed

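Single nuclei from rhesus macaque amygdala were profiled with the 10x Genomics 3′ chemistry, per the labels' protocols. The deposited table holds raw UMI counts per gene and nucleus, which the authors made with fastp and Cell Ranger 3.0.0, naming GRCh38, per the submitters' processing notes. It holds 19708 gene rows, and 796 macaque Ensembl identifiers were given symbols from a reference table. How reads of overlapping genes were counted is not given in the sources used here. The table has 26400 nuclei and 151526883 UMIs, with 457 to 21684 UMIs per nucleus and a median of 5053.5.

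Members and gene lists were chosen with earlier results of these data known. No column names a sample, so the nuclei are 1 pool, and the design's case of no test between classes applied. Counts were summed per set of nuclei. To be measured, a gene needed 50 or more UMIs in 1 of the 2 sets compared and an expected 10 or more in both. A cut below 50 UMIs was used where 1 sub-cluster was compared with the other FOXP2 nuclei. Genes used by the rule were left out, and a count of 0 was set to a floor of 3. The genes named are the 12 highest and 12 lowest called, the FOXP, TLE, relaxin and FOXP2 partner lists, and up to 3 called genes in each direction of every other list. Further list genes were named after their values were seen. Some genes that the rule names are not reported here. Doublets were scored with Scrublet in scanpy 1.11.5 and presumed at 0.8% per 1000 nuclei (14 FOXP2 nuclei). Sub-clusters came from Leiden clustering at resolution 0.5 on 4932 genes (1000 variable genes, 10 components, 10 neighbours). At lower resolution (0.3) sub-cluster 1 stayed whole and 2 and 4 merged. At 1.0 sub-clusters 1 and 2 were each split over 3 clusters, and 9 nuclei of sub-cluster 1 shared a cluster with 5 of sub-cluster 2. The border between sub-cluster 1 and sub-clusters 2 to 4 thus did not hold at 1.0 for these nuclei. The comparison was checked on simulated data.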

Additional observations from a re-analysis of the deposited data

How the results depend on the processing

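The counts of 594 higher and 667 lower genes stayed within 1.5-fold under each of the 15 alternatives, but the genes changed. Higher genes ranged from 401 with nuclei thinned to 3000 UMIs (316 shared with the 594, of 5437 measured) to 622 with gate-matched nuclei (547 shared). Lower genes ranged from 452 at FOXP2 of 2 or more (334 shared with the 667) to 824 with sub-clusters 2 to 4 (505 shared), and thinning gave 463 (315 shared). At FOXP2 of 2 or more higher genes, 522, outnumbered lower ones, as they did with gate-matched nuclei (613 lower). Leaving out 1 barcode set gave 548 to 558 higher and 574 to 671 lower genes. The share of FOXP2 nuclei among gated excitatory nuclei was 0.808 to 0.860% without 1 set. It moved with the cut, to 1.18% at FOXP2 of 2 or more and 0.450% at 6 or more, and was 0.528% with sub-clusters 2 to 4. Of 111 named genes called, 0 changed sign, while 43 moved by over 1.5-fold with sub-clusters 2 to 4, 33 at FOXP2 of 2 or more and 23 with thinning. A call already needed 1 direction in each barcode set, so leaving out a set could hardly change a sign. Of the 111, 13 were under 2-fold at FOXP2 of 2 or more, 11 with thinning and 0 to 6 under each of the other alternatives. The 13 included GRIA1 (−0.96), CTBP2 (−0.91), CDH12 (−0.83) and RYR3 (−0.55). Without the presumed doublets 18 moved. They included ZBTB20 (−3.75), UNC5C (−3.80), NFIA (−2.33), GABRG1 (−1.91) and KCNIP1 (4.00), as log2 ratios. Against gate-matched nuclei 9 moved, among them IL1RAP (−2.98), RASGRF2 (−1.84), TACR1 (−1.08), CNTN5 (−1.08), TRPC6 (−3.92) and PDE9A (3.42). Trimmed-mean scaling shifted ratios by 0.02. No paired analysis was possible because the nuclei carry no sample numbers. Genes with a few UMIs in 97 nuclei are limited by depth.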
